A study of Mus musculus with 59 samples.

Results

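LINE-1 (L1) elements are the autonomous retrotransposons of mammalian genomes. Here the L1 repeat subfamilies were followed in RNA-seq libraries of haematopoietic stem and progenitor cells from mouse bone marrow. All repeat rows of family L1 were taken and split by name, which used no measured value. The 6 names starting with L1Md (L1Md_A, L1Md_F, L1Md_F2, L1Md_F3, L1Md_Gf and L1Md_T) are the young mouse subfamilies, and the other 127 are called older L1. The older names comprised 85 L1M, 21 Lx, 11 mouse and rodent names (such as L1_Mus, L1_Mur and L1VL), 6 HAL1, 2 L1P and 2 others. The same 133 subfamilies stood in each of the 7 repeat tables used, which held 887 to 1114 repeat rows.

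A full L1 element carries its own promoter and encodes an RNA-binding protein and a protein with endonuclease and reverse transcriptase activity, which together copy the L1 RNA back into the genome. In the mouse the A, Gf and T (Tf) groups are the ones known to hold copies that still move, F is an older group related to them, and Lx and L1M elements are long inactive and read mainly as fragments inside other transcripts. Young L1 promoters are held silent by DNA methylation, by histone H3 lysine 9 methylation brought in through Trim28 and Setdb1 or through the HUSH complex, and at many repeats by histone H3.3 deposited by Daxx with Atrx. L1Md subfamilies share long stretches of sequence, so their counts are not independent readouts of separate elements.

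The labels describe 59 samples of strain C57BL/6, all of them Cre +/-, and 34 libraries with repeat counts could be assigned to a group. In the Mx1Cre line, KLS cells (lineage-negative, c-Kit-positive, Sca-1-positive, a mixture that contains the stem cells) were studied 3 weeks post induction (w.p.i.) in 3 WT (Daxx +/+), 3 Daxx-KO (Daxx F/F) and 2 DKO (Daxx F/F Pu.1 F/F) libraries, and granulocyte-monocyte progenitors (GMPs) in 2 libraries of each genotype. A Pu.1 line, also with Mx1Cre and taken at 3 w.p.i., contributed 2 Pu.1-KO (Pu.1 F/F) and 2 WT (Pu.1 +/+) libraries per cell type. For 24 w.p.i. there were 2 WT (Daxx +/+) libraries per cell type. For each cell type a further 2 libraries labelled Daxx-KO (Daxx F/F) and 2 labelled WT (Daxx +/+) carry neither a time nor a mouse line and are called untimed. The study also sequenced, in duplicate, KLS cells and GMPs from irradiated mice transplanted with bone marrow. Whether the untimed libraries are these is not settled here. Mx1Cre is switched on by an interferon response and acts in blood cells and in other tissues. The labels date the WT libraries from the end of induction too. Daxx is a histone H3.3 chaperone, and Pu.1, encoded by Spi1, is a transcription factor of myeloid and B cells. Long-term stem cells, multipotent progenitors and the Daxx-KO and DKO cells at 24 w.p.i. were not analysed here, because their columns could not be matched to the labels.

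Several features of the libraries bear on all results. Libraries held 1263010 to 12894834 repeat reads, and the deepest was the one labelled Pu.1-KO b of KLS cells. Daxx, the deleted gene, had a normalized count of 72.2 to 102 in Daxx-KO and 78.1 to 93.9 in DKO KLS cells at 3 w.p.i. against 423 to 505 in WT, and was lower in each lacking library than in each WT library of every Daxx table. Spi1 went against its label in DKO KLS cells, at 3330 and 2990 against 1680, 1670 and 2320 in WT (log2 difference 0.76, limma adjusted p 0.0155), and in the Pu.1 line it was not called in either cell type (adjusted p 0.747 and 0.153), so these groups are meant below as libraries labelled DKO and libraries labelled Pu.1-KO. Gene-level counts do not isolate the deleted part of Spi1. In the Pu.1 line the genotype of each library was read from a column ending for treatment or control, which Spi1 did not settle. All 6 KLS markers (Kit, Ly6a, Cd34, Meis1, Hlf, Mecom) and all 6 GMP markers (Mpo, Elane, Prtn3, Ctsg, Cebpe, Fcgr3) were detected in each cell type.

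In the untimed tables the genotype in the header is in doubt. The ratio of gene reads to repeat reads for libraries with the same header ranged from 0.458 to 15.8 in KLS cells and from 0.91 to 7.38 in GMPs. When the repeat columns of the other genotype with the same number were used, it lay between 2.63 and 2.75 in KLS cells and between 2.23 and 3.01 in GMPs. The normalized value of 1 read paired in the same way. In KLS cells it was 1.07, 0.2848, 1.795 and 1.772 in repeat columns WT 1, WT 2, Daxx-KO 1 and Daxx-KO 2. Gene columns Daxx-KO 1, Daxx-KO 2, WT 1 and WT 2 had 1.094, 0.303, 1.72 and 1.722. In GMPs, in the same orders, it was 2.101, 0.3977, 1.295 and 0.9013 against 2.028, 0.4079, 1.301 and 0.9036. By this value each repeat column lay nearest a gene column of the other genotype. The Daxx level follows the headers in the gene tables. If the genotype names of the repeat columns were exchanged, every untimed repeat direction given below would turn around. The untimed gene directions would stay. These libraries are therefore named only by their labels.

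L1 reads made up 18.3 to 26.5% of all repeat reads in the Daxx line 3 weeks after induction, 19.9 to 21.8% at 24 w.p.i., 24.0 to 41.8% in the untimed libraries and 31.2 to 47.2% in the Pu.1 line. The 6 L1Md subfamilies took 18.6 to 30.0% of the L1 reads in KLS cells at 3 w.p.i., 19.5 to 50.9% in GMPs at 3 w.p.i. and 25.2 to 26.2% at 24 w.p.i. In WT GMPs of the Pu.1 line they took 69.7 and 72.4%, the highest shares of the series. Tables were counted and scaled separately, so these shares are a description across tables and not a comparison.

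**Figure D1:**
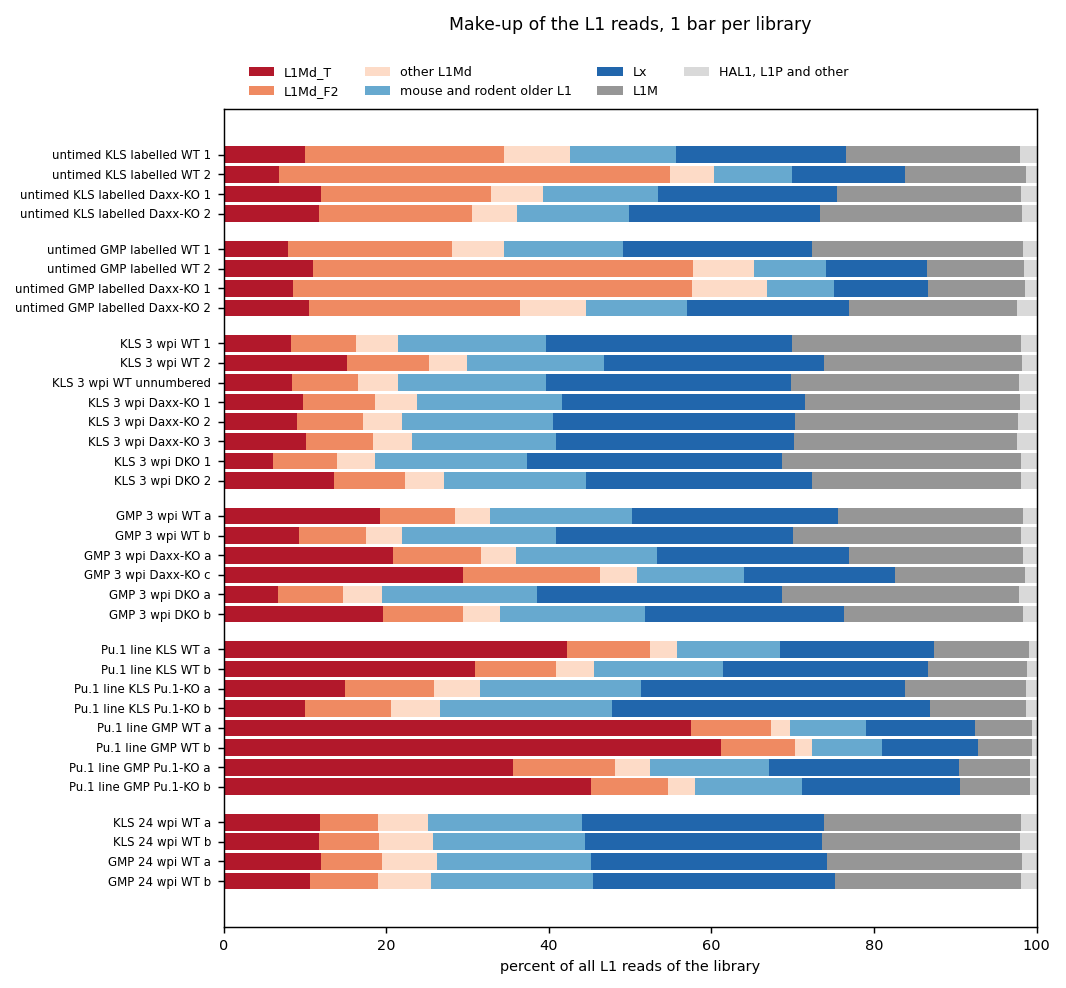
Make-up of the L1 reads in the 34 libraries, 1 horizontal bar per library, with the percent of all L1 reads of that library on the x axis and colours for L1Md_T, L1Md_F2, the other L1Md and the groups of older L1. L1Md_T fills most of the L1Md part in the WT libraries of the Pu.1 line, and L1Md_F2 does so in the untimed libraries.

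The subfamily that led the young group differed between tables. L1Md_T held 32.4 to 50.6% of the L1Md reads in KLS cells and 34.6 to 58.6% in GMPs at 3 w.p.i., and 41.7 to 46.9% at 24 w.p.i. In the Pu.1 line its share reached 82.5 and 84.5% in WT GMPs and was 37.6% in the library labelled Pu.1-KO b of KLS cells. In the untimed libraries L1Md_T held 11.4 to 32.6% and L1Md_F2 held 52.0 to 79.6%. Among older L1 the Lx group held 34.7 to 39.9% of the reads and L1M 30.7 to 39.6% outside the Pu.1 line, and 43.0 to 53.3% and 16.1 to 26.2% within it. The older subfamily with the most reads was Lx8, except in the Pu.1 line, where it was L1_Mus3.

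The first question was whether L1 RNA changes when Daxx is lost. In KLS cells at 3 w.p.i. none of the 6 L1Md and none of the 125 older subfamilies tested was called between Daxx-KO and WT by the quasi-likelihood test of edgeR, where 0.613% of all 815 repeat subfamilies were called. DESeq2 called none either. At an unadjusted p under 0.05, 1 L1Md and 4 older subfamilies stood out, against 7.98% of all subfamilies. The median log2 difference was −0.12 for L1Md and −0.04 for older L1, beside 0.0 for all subfamilies.

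L1Md_T, the most abundant young subfamily here, had 19564, 17581 and 20343 CPM (counts per 1000000 repeat reads, with library sizes adjusted by TMM) in Daxx-KO KLS cells and 16948, 33218 and 16520 in WT. Daxx-KO lay inside the WT range, and WT library 2 stood well above the others. The log2 difference was −0.21 (SE 0.23, adjusted p 0.917). L1Md_Gf, one of the groups with mobile copies, had 432, 376 and 406 CPM in Daxx-KO and 464, 482 and 479 in WT. It was the 1 L1Md subfamily whose groups did not overlap, but its difference of −0.23 (SE 0.075) did not pass the adjustment (p 0.0138, adjusted p 0.469). For L1Md_A, with 5542, 5159 and 5319 against 5616, 5069 and 5562 CPM, the difference was −0.02 (SE 0.05).

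All 6 L1Md differences lay below 0, between −0.23 and −0.02, and the one farthest from 0, L1Md_Gf, corresponds to a 1.17-fold lower level. Of the older L1, 36 lay above and 89 below 0, with the quartiles at −0.08 and 0.02. The median was −0.01 for Lx, −0.05 for mouse and rodent names and −0.04 for L1M. The groups did not overlap for 18 of all 127 older subfamilies, while this was the case for 14.2% of all subfamilies tested. In the gene table of these cells the B lineage markers named further down summed to 1510 to 31300 in Daxx-KO and 447 to 739 in WT, and erythroid markers to 26.2 to 94.2 and 173 to 331, without overlap in either list, and their part in the L1 values was not tested. The extremes of older L1, chosen after their values were seen, were L1M7 at −0.76 and L1M6B at 1.42, and neither was called.

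In GMPs at 3 w.p.i. the young subfamilies showed the widest spread of the Daxx line. None of the 6 L1Md and 122 older subfamilies was called between Daxx-KO and WT by edgeR, as none of all 798 subfamilies was (0.0%), and DESeq2 also called none. At an unadjusted p under 0.05 there were 2 L1Md and 3 older subfamilies, against 3.76% of all subfamilies. The median difference of L1Md was 0.68, while that of older L1 was −0.03 and that of all subfamilies 0.01.

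L1Md_T had 48293 and 86865 CPM in the Daxx-KO GMP libraries a and c, and 43006 and 16141 in the WT libraries a and b. Both Daxx-KO values were above both WT values, by a narrow margin for Daxx-KO a and WT a. The log2 difference was 1.20 with an SE of 0.69 (adjusted p 0.978). L1Md_F2 had 25170 and 49721 CPM against 20623 and 14521, a difference of 1.10 (SE 0.36, p 0.0212, adjusted p 0.978). L1Md_F3 had 4015 and 7805 against 3939 and 2656 CPM (0.85, SE 0.36), and L1Md_F had 625 and 780 against 543 and 439 (0.52, SE 0.155, p 0.0135, adjusted p 0.879). In these 4 subfamilies the groups did not overlap and Daxx-KO c was the highest library, whereas 34.3% of all subfamilies had groups that did not overlap.

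L1Md_A and L1Md_Gf did not share this order. L1Md_A had 4973 and 4723 CPM in Daxx-KO GMPs and 5010 and 4320 in WT. L1Md_Gf had 358 and 246 against 281 and 330. Both pairs of groups overlapped. The L1Md median was 0.32 without Daxx-KO c, 0.48 without WT b, 0.91 without WT a and 0.95 without Daxx-KO a. Over the 4 libraries left out in turn, the L1Md_T difference ran from 0.65 to 2.06 and that of L1Md_F2 from 0.52 to 1.5. WT b and the library labelled DKO a, where L1Md_T was lowest, also had the lowest ratios of gene reads to repeat reads, at 4.92 and 4.59, against 8.0 in WT a, 7.3 and 6.59 in Daxx-KO and 8.75 in DKO b, and the part of this ratio in the L1Md_T level was not tested. Scaling to the total of repeat reads gave 0.52 for L1Md and −0.19 for older L1, with a shift of all subfamilies to −0.15. By name, older L1 stayed near that background, with medians of 0.05 for Lx, 0.12 for mouse and rodent names and −0.05 for L1M, which total scaling moved to −0.10, −0.03 and −0.22.

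Markers of other cell types moved with the genotype in the gene table of these GMPs, which holds 3 libraries each of Daxx-KO and WT. Summed normalized counts of 5 B lineage markers (Cd79a, Cd79b, Ebf1, Pax5, Vpreb1) were 671 to 9030 in Daxx-KO, 236 to 3370 in libraries labelled DKO and 196 to 604 in WT. Those of 3 erythroid markers (Hba-a1, Hbb-bs, Klf1) were 36.1 to 71.2, 110 to 202 and 84.7 to 606. In both lists Daxx-KO and WT did not overlap, in opposite directions. The 4 plasma cell markers (Jchain, Mzb1, Sdc1, Xbp1) summed to 1410 to 1740, 3030 to 3460 and 1330 to 2450, the 3 T cell markers (Cd3e, Cd3g, Cd3d) to 0.0 to 4.88, 13.8 to 65.9 and 0.883 to 6.53, and the GMP markers to 85300 to 175000, 97400 to 190000 and 119000 to 194000. Their part in the L1Md values was not tested. In bulk libraries such as these, fewer cells of a type and less RNA per cell cannot be told apart.

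**Figure D2:**
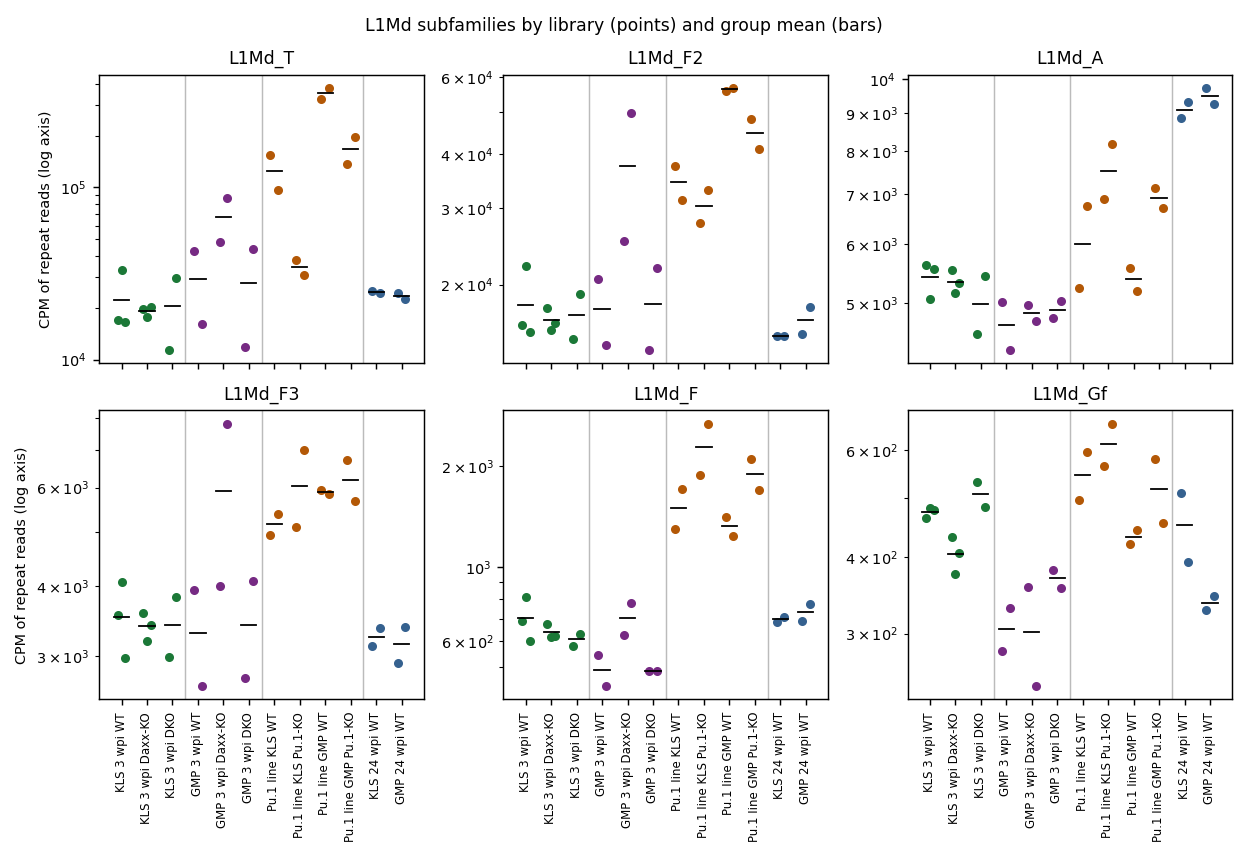
Levels of the 6 L1Md subfamilies in CPM of repeat reads (log axis, scaled within each table), with 1 point per library and a bar at the mean of each group, for both cell types at 3 w.p.i., the Pu.1 line and the WT libraries at 24 w.p.i. L1Md_T ranged from 11343 to 33218 CPM in KLS cells of the Daxx line at 3 w.p.i., and from 31071 to 379890 in the Pu.1 line.

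The libraries labelled DKO, in which both genes were targeted, were compared with the same WT libraries and with Daxx-KO. In KLS cells no L1 subfamily was called against WT by edgeR, where 0.605% of all subfamilies were called (0.484% higher and 0.121% lower), and 13 older and no L1Md subfamilies had an unadjusted p under 0.05, against 14.5% of all. DESeq2 called 2, L1M3d (1.94) and L1MD1 (0.32). The medians were −0.09 for L1Md and 0.01 for older L1. Groups did not overlap for 1 L1Md and 40 older subfamilies, and for 32.0% of all. L1Md_T varied most between the libraries labelled DKO, at 11343 and 29615 CPM, so its difference from WT of −0.12 had an SE of 0.43.

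Against Daxx-KO, 1 of 131 L1 subfamilies tested in KLS cells was called, where 0.839% of all subfamilies were (0.36% higher and 0.48% lower). Groups did not overlap for 1 L1Md and 47 older subfamilies, and for 30.9% of all. L1M3d, an old L1M subfamily with few reads, had 70.9 and 40.3 CPM in the libraries labelled DKO and 11.8, 15 and 11.8 in Daxx-KO, with 14.2, 10.5 and 18.8 in WT. Both libraries labelled DKO were above all 6 others. The rise over Daxx-KO was 4.33-fold (log2 2.11, SE 0.34, adjusted p 0.0284), and the difference from WT of 1.94 (SE 0.35) had an adjusted p of 0.0679. The call was lost without Daxx-KO 1 (adjusted p 0.084), 2 (0.0508) or 3 (0.137) and without DKO 1 (1.64, adjusted p 0.348). Summed GMP markers were 106000 to 109000 in these libraries labelled DKO, 3560 to 12600 in Daxx-KO and 4670 to 42800 in WT. KLS markers summed to 26300 to 34300, 31600 to 63000 and 60900 to 88000. Plasma cell markers summed to 17300 to 18100, 3620 to 15400 and 801 to 10900, and T cell markers to 39.5 to 408, 12.4 to 66.4 and 0.0 to 24.0. B lineage and erythroid markers overlapped between libraries labelled DKO and WT. The part of these markers in L1M3d and the other L1 values was not tested. L1Md_Gf had 532 and 484 CPM in libraries labelled DKO, above all Daxx-KO values given before, and its difference of 0.33 (SE 0.084) had an adjusted p of 0.11. DESeq2 called 6 L1 subfamilies here, with L1M3d (2.12), L1M7 (0.95), L1MD1 (0.34), L1Md_Gf (0.33) and Lx5c (0.19) higher and L1_Mm (−0.43) lower.

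In GMPs labelled DKO no L1 subfamily was called by edgeR or DESeq2 against WT or against Daxx-KO. At an unadjusted p under 0.05 there was none against WT, and 2 L1Md and 5 older subfamilies against Daxx-KO. Of all subfamilies 0.0% were called, and 3.26% and 5.26% had an unadjusted p under 0.05. Groups did not overlap for 37 L1 subfamilies against WT and 39 against Daxx-KO, beside 31.0% and 34.3% of all. L1Md_T had 11908 and 43709 CPM in the libraries labelled DKO, which spanned the whole WT range. The difference from WT was −0.09 (SE 0.68) and that from Daxx-KO −1.28 (SE 0.69). L1Md_F2 had 14131 and 21897 CPM, with a difference of −1.06 (SE 0.36) from Daxx-KO, and L1Md_F had 486 and 489 (−0.53, SE 0.155, p 0.0127). These comparisons share the WT or the Daxx-KO libraries with those above and are not independent of them.

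The Pu.1 line asked whether L1 RNA changes when Pu.1 alone is targeted. In KLS cells L1Md_T was the 1 L1 subfamily of 131 tested that was called, where 0.236% of all 847 subfamilies were. It had 38152 and 31071 CPM in the libraries labelled Pu.1-KO (34600 ± 5010, SD, n = 2) and 153707 and 96140 in WT (125000 ± 40700, n = 2). Both libraries labelled Pu.1-KO were below both WT libraries. L1Md_T fell by 1.85 on the log2 scale (SE 0.29, adjusted p 0.0358), a 3.61-fold lower level. The call was lost without WT a, the higher of the WT libraries (−1.48, adjusted p 0.507), and kept under the other 6 alternatives, among them DESeq2 (−1.88, adjusted p 3.18e-11) and scaling to the total (−1.52, adjusted p 0.0399).

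The other young subfamilies were not called by edgeR, and 4 of the other 5 lay above 0. L1Md_F had 1882 and 2689 CPM in KLS cells labelled Pu.1-KO and 1298 and 1707 in WT, a difference of 0.60 (SE 0.21, adjusted p 0.216) that DESeq2 called as higher. L1Md_A had 6896 and 8167 against 5235 and 6753 CPM (0.33, SE 0.17), and L1Md_F2 had 27689 and 32970 against 37533 and 31259 (−0.18, SE 0.19). Only L1Md_T and L1Md_F2 of the 6 lay below 0, and the median of L1Md was 0.20.

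In GMPs of the Pu.1 line L1Md_T was at its highest level of the table. It had 137325 and 195700 CPM in the libraries labelled Pu.1-KO (167000 ± 41300, n = 2) and 324902 and 379890 in WT (352000 ± 38900, n = 2), again without overlap. The difference of −1.08 (SE 0.29, p 0.00351) did not pass the adjustment in edgeR (adjusted p 0.507), and it was the 1 L1 subfamily that DESeq2 called (−1.11, adjusted p 0.0126). EdgeR called no L1 subfamily, as it called 0.0% of all subfamilies. At an unadjusted p under 0.05 there were 2 L1Md and 7 older subfamilies, against 9.45% of all subfamilies. L1Md_F had 2100 and 1703 CPM against 1411 and 1240 (0.52, SE 0.21, adjusted p 0.507).

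The interaction between genotype and cell type was tested in the same table. For L1Md_T the difference in GMPs minus that in KLS cells was 0.775 (SE 0.401, p 0.0814, adjusted p 0.992). EdgeR called none of the 131 L1 subfamilies and 0.0% of all subfamilies for this term. No L1Md and 2 older subfamilies had an unadjusted p under 0.05, against 2.24% of all subfamilies, and DESeq2 called none. Each animal gave a library of each cell type, and edgeR with the animal as a block also called none.

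**Figure D3:**
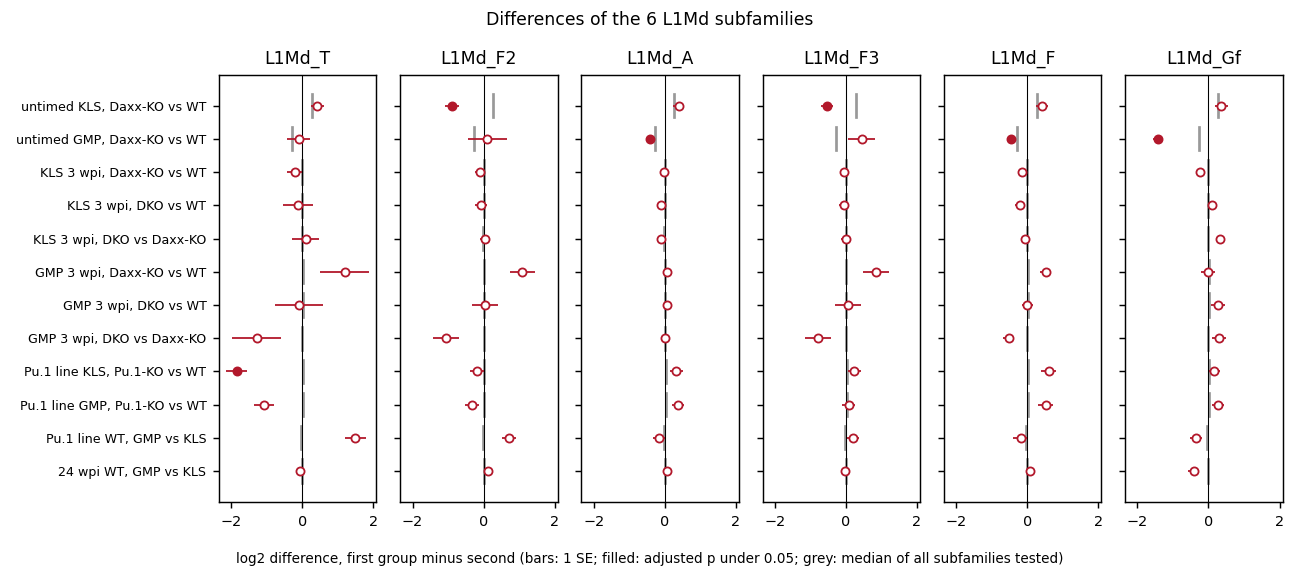
Log2 difference of each L1Md subfamily in 12 comparisons (first group minus second, x axis), with bars of 1 SE, filled points for an adjusted p under 0.05 and a grey line at the median of all subfamilies tested. Outside the untimed libraries the 1 filled point is L1Md_T in KLS cells of the Pu.1 line, at −1.85.

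Older L1 of the Pu.1 line separated by name. None was called in KLS cells, but 18 of 21 Lx and 5 of 11 mouse and rodent subfamilies had an unadjusted p under 0.05, compared with 8 of 83 L1M tested and 19.2% of all subfamilies. The median difference was 0.58 for Lx, with 20 above and 1 below 0, 0.33 for mouse and rodent names and −0.07 for L1M, beside 0.02 for all subfamilies. The L1M median turned to 0.26 when libraries were scaled to the total of repeat reads, where Lx had 0.90 and all subfamilies 0.34. DESeq2 called 10 Lx and 3 mouse and rodent subfamilies as higher, and 1 L1M as lower, in the libraries labelled Pu.1-KO.

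Lx2A1, the Lx subfamily with the largest difference, had 597 and 942 CPM in KLS libraries labelled Pu.1-KO and 356 and 512 in WT (0.82, SE 0.25, adjusted p 0.216). Lx8, the most abundant Lx, had 11590 and 14935 against 10304 and 11066 CPM (0.31, SE 0.17, adjusted p 0.328). Lx3B was the 1 Lx below 0, with 2165 and 2538 against 2847 and 2453 CPM. L1_Mus3, the most abundant older subfamily of the line, had 12319 and 16664 against 10036 and 11546 CPM. These 4 were chosen after their values were seen. In all of them but Lx3B the library labelled Pu.1-KO b was the highest, and no overlap between groups was seen for 20 of 21 Lx and 51.2% of all subfamilies.

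The library labelled Pu.1-KO b stood apart in other measures. Older L1 made up 29.8% of its repeat reads, against 21.3% in Pu.1-KO a and 15.3 and 18.2% in WT. Its ratio of gene reads to repeat reads was 1.34, compared with 2.71 in Pu.1-KO a and 3.88 and 3.04 in WT. It had 30291 genes above 0, with 29391 in Pu.1-KO a and 25662 and 27548 in WT. Without it the Lx median was 0.22, the median of mouse and rodent names 0.10 and that of L1Md 0.01, while L1Md_T stayed called (−1.71, adjusted p 0.0343). Without Pu.1-KO a, when library b alone stood for its group and was assumed to vary like the others, the Lx median was 0.84 and edgeR called 41 L1 subfamilies, among them 19 Lx as higher.

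In GMPs of the Pu.1 line no Lx had an unadjusted p under 0.05. The Lx median was 0.31, again with 20 above and 1 below 0, and 20 of 21 had groups that did not overlap, beside 55.0% of all subfamilies. Mouse and rodent names had a median of 0.14 and L1M of −0.13, which scaling to the total turned to 0.22, with Lx at 0.65 and all subfamilies at 0.36. Lx8 had 11729 and 11084 CPM in GMP libraries labelled Pu.1-KO and 10742 and 10357 in WT.

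**Figure D4:**
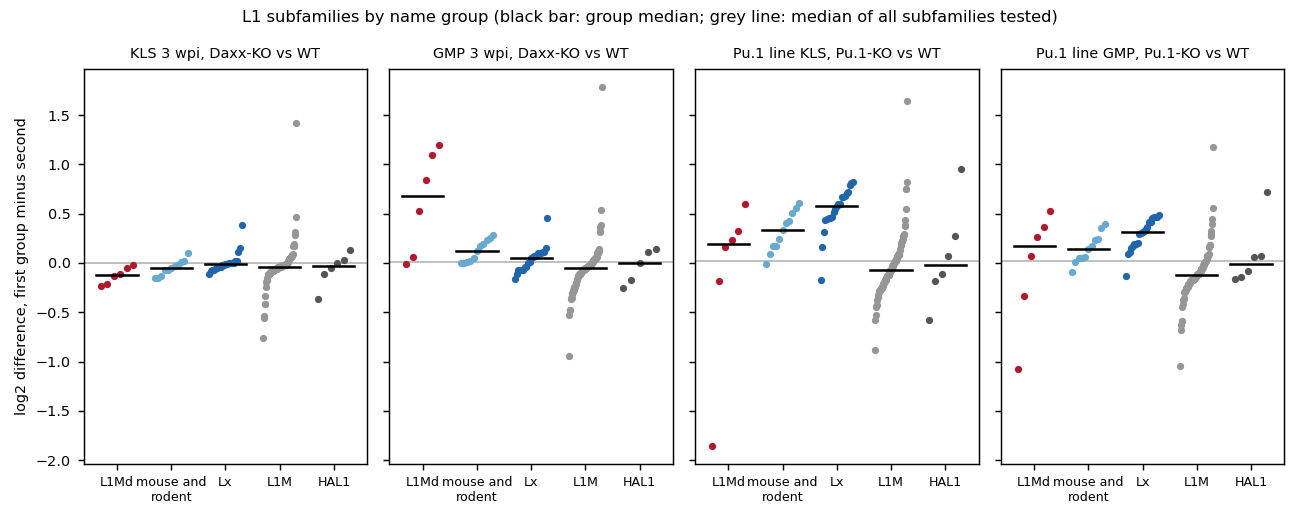
Log2 difference (y axis, first group minus second) of each L1 subfamily tested, by name group (x axis), in 4 comparisons, with a black bar at the median of each group and a grey line at the median of all subfamilies. In the Pu.1 line the Lx median was 0.58 in KLS cells and 0.31 in GMPs, and L1Md_T is the lowest L1Md point in both panels. L1P and the 2 other names are not drawn.

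The ratio of summed L1Md to summed older L1 reads followed L1Md_T in the Pu.1 line. In KLS cells of the Pu.1 line its log2 was lower by 1.33 in libraries labelled Pu.1-KO (−1.33, SD between libraries 0.34), and in GMPs the difference was −1.0 (SD 0.19). Leaving out L1Md_T and L1_Mus3 brought these to −0.29 and −0.30. In GMPs at 3 w.p.i. the ratio differed by 1.04 (SD 0.59) between Daxx-KO and WT. Without L1Md_T and Lx8 its log2 there was −1.98 and −1.1 in Daxx-KO a and c. In WT a and b it was −2.21 and −2.51, so the groups still did not overlap. These sums are given without a test.

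Cell markers differed between the groups of the Pu.1 line. Summed KLS markers were 13300 to 32700 in KLS libraries labelled Pu.1-KO and 53600 to 63900 in WT. Summed GMP markers were 104000 to 185000 in GMP libraries labelled Pu.1-KO and 259000 to 283000 in WT. The B lineage markers summed to 5320 to 13600 in KLS libraries labelled Pu.1-KO and 3870 to 4040 in WT, and to 2710 to 4730 and 1340 to 1430 in GMPs. Erythroid markers summed to 106 to 875 against 1190 to 2290 in KLS cells, again without overlap, and to 516 to 1890 against 359 to 870 in GMPs. Plasma cell and T cell markers overlapped between the groups in both cell types. The part of these differences in the L1 values was not tested.

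WT cells allowed a comparison of cell types without any deletion. In both WT sets the KLS and the GMP library with the same letter came from 1 animal. In the Pu.1 line L1Md_T was higher in both WT GMP libraries than in both WT KLS libraries (values above), a 2.81-fold difference (log2 1.49, SE 0.29) with an adjusted p of 0.0671 in edgeR. With the animal as a block it was called (1.54, adjusted p 0.000788). L1Md_F2 had 55798 and 56796 CPM in GMPs and 37533 and 31259 in KLS cells (0.71, SE 0.19, adjusted p 0.274). Without the block no L1 subfamily was called by edgeR, where 0.472% of all subfamilies were, and 2 L1Md and 5 older subfamilies had an unadjusted p under 0.05, against 4.84% of all. DESeq2 called both of these L1Md (1.51, adjusted p 1.57e-06, and 0.73, adjusted p 0.00463).

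At 24 w.p.i. the young subfamilies did not show this order. L1Md_T had 24382 and 22574 CPM in WT GMPs and 25092 and 24381 in WT KLS cells, so the groups overlapped by a narrow margin. The difference was −0.07. L1Md_F2 had 15426 and 17808 CPM in GMPs against 15214 and 15203 (0.13). L1Md_Gf had 328 and 346 against 510 and 393 CPM, a difference of −0.42 (SE 0.15, adjusted p 0.256). The 2 WT sets were counted in separate tables, and the difference between them was not tested.

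Of 131 L1 subfamilies tested at 24 w.p.i., L1MCa was called, where 1.95% of all subfamilies were (0.608% higher and 1.34% lower). This old L1M subfamily had 603 and 542 CPM in GMPs and 863 and 800 in KLS cells, with both GMP libraries below both KLS libraries. L1MCa was 1.45-fold lower in GMPs (log2 −0.54, SE 0.12, adjusted p 0.0141). The call was lost without KLS a (−0.48, adjusted p 0.379) or KLS b (−0.59, adjusted p 0.0784), and 12 L1 subfamilies were called without GMP a and 5 without GMP b. DESeq2 called L1M7 (−2.07), L1MA10 (−0.86) and Lx3B (−0.34) beside it, and edgeR with the animal as a block called L1M3b (1.33) and L1MA10 (−0.86) beside it. The GMP libraries held 331000 to 362000 of summed GMP markers and the KLS libraries 30100 to 45000, and erythroid markers summed to 7310 to 7880 and 21200 to 23600. Their part in the L1 values was not tested.

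The untimed libraries, whose repeat headers are in doubt, gave the largest numbers of calls. In KLS cells 15 of 124 older L1 tested were higher and none lower in libraries labelled Daxx-KO by limma, and 2 of 6 L1Md were lower, where 11.8% of all subfamilies were called, 7.85% higher and 3.97% lower. An unadjusted p under 0.05 was found for all 6 L1Md, 53 older L1 and 29.9% of all subfamilies. The count of 17 L1 calls ran from 1, without the library labelled WT 2 or Daxx-KO 2, to 56 without WT 1. The median of all subfamilies was shifted to 0.27, and that of older L1 was 0.32. After TMM rescaling these medians were 0.01 and 0.06, and 2 L1 calls were left, L1MEd (0.59, adjusted p 0.0258) and L1Md_F3 (−0.80, adjusted p 0.00687).

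L1MEd, an old L1M subfamily, had normalized counts of 3363 and 3135 in KLS libraries labelled Daxx-KO and 2063 and 1561 in those labelled WT (0.86, SE 0.16, adjusted p 6.96e-06). L1ME3E had 363 and 447 against 248 and 197 (0.86, SE 0.21, adjusted p 0.0015). For both, the groups did not overlap, which was so for 98 of all 127 older L1 and 65.3% of all subfamilies tested. L1Md_F3 had 26896 and 23406 against 39961 and 32884 (−0.53, SE 0.17, adjusted p 0.0227), again without overlap. L1Md_F2 had 147971 and 126013 against 162343 and 393027, and its difference of −0.89 (SE 0.20, adjusted p 0.000197) was −0.25 without the library labelled WT 2. For L1Md_T, with 84852 and 78981 against 66219 and 56166, the adjusted p was 0.0936.

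In untimed GMPs 12 of 124 older L1 and 3 of 6 L1Md were lower in libraries labelled Daxx-KO and none was higher, where 14.3% of all subfamilies were called, 14.0% lower and 0.302% higher. An unadjusted p under 0.05 was found for 3 L1Md, 59 older L1 and 32.8% of all subfamilies. The count of 15 ran from 3, without either library labelled Daxx-KO, to 71 without WT 2. Again the median of all subfamilies (−0.28) lay where that of older L1 (−0.27) and L1Md (−0.26) did, and TMM rescaling brought them to 0.0, 0.01 and 0.02. The 1 call left after rescaling was L1Md_Gf. It had 640 and 623 in GMP libraries labelled Daxx-KO and 1572 and 1843 in those labelled WT, with a wide gap between the groups. With the genotype names of the repeat columns exchanged, L1Md_Gf would be higher in Daxx-KO. Its difference was −1.43 (SE 0.13, adjusted p 1.04e-07) as deposited and −1.15 (adjusted p 0.0077) after rescaling, and it was called under all 10 alternatives.

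The other calls in untimed GMPs were smaller. L1Md_A had 10673 and 10148 against 13524 and 14164 (−0.41, SE 0.13, adjusted p 0.0423). L1Md_F had 1072 and 1070 against 1349 and 1596 (−0.45, SE 0.12, adjusted p 0.0212). Of the older L1, L1MCb had 221 and 191 against 345 and 340 (−0.73, SE 0.17, adjusted p 0.00915) and L1M4a1 had 316 and 329 against 519 and 453 (−0.59, SE 0.15, adjusted p 0.016). In these 4 the groups did not overlap, as in 90 of all 127 older L1 and 65.7% of all subfamilies tested. L1Md_F2 was uneven, with 539063 and 155739 against 128248 and 569784, so the high library of each label lay far from its partner, and L1Md_F3 and L1Md_T also had 1 high and 1 low library under each label. In the gene columns the untimed KLS libraries labelled Daxx-KO held 8140 to 8550 of summed KLS markers and 11300 to 14800 of GMP markers. Those labelled WT held 35700 to 35800 and 686 to 1300. Repeat columns with the same label may belong to libraries of the other genotype, so marker sums cannot be matched to the L1 values by label. In untimed GMPs the GMP markers summed to 63700 to 65300 and 63500 to 63700. The B lineage markers of untimed KLS cells summed to 145 to 165 in libraries labelled Daxx-KO, below the 803 to 1750 of those labelled WT, and plasma cell markers were lower in them too, and the part of these markers in the L1 values was not tested.

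Genes known to act on L1 were read from the gene tables with a list of 45 genes, 30 of them acting on L1 transcription and chromatin and 15 on the RNA or its copying. At 3 w.p.i. the only one called between Daxx-KO and WT was Daxx itself, at −2.44 in KLS cells (1 of 40 tested, adjusted p 0.00373) and −3.18 in GMPs (1 of 39, adjusted p 0.000763), where 0.257% and 0.0948% of all genes were called. In GMPs labelled DKO it was again only Daxx against WT (0.292% of all genes called) and none against Daxx-KO by limma (0.0583% of all genes).

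In KLS cells labelled DKO 6 of 40 listed genes tested were called, 3 higher and 3 lower than in WT. Of all genes 17.6% were called, 9.24% higher and 8.4% lower. Daxx, the deleted gene, was 1 of the 3 lower. Mbd2, a reader of methylated DNA, had normalized counts of 6460 and 4850 in libraries labelled DKO and 2100, 2110 and 2520 in WT (1.32, adjusted p 0.00124). Samhd1, which limits the nucleotides available for reverse transcription, had 1370 and 934 against 2950, 2770 and 2150 (−1.20, adjusted p 0.0035). H3f3b, an H3.3 gene, and Rb1, which takes part in silencing of repeats, were higher (0.67 and 0.54), and the DNA methyltransferase Dnmt3b was lower (−0.61). Against Daxx-KO 6 of 40 were called, beside 15.4% of all genes. Mbd2 (1.27), Rb1 (0.83) and the HUSH subunit Fam208a (0.64) were higher. Samhd1 (−0.99), Dnmt3b (−0.94) and the heterochromatin protein gene Cbx1 (−0.61) were lower. Without DKO 1 the 6 genes became 3 against WT and 2 against Daxx-KO. KLS, GMP and plasma cell markers differed between these libraries and WT, as given above, and their part in these gene values was not tested.

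In the Pu.1 line limma called none of the 42 listed genes tested in KLS cells, where 0.81% of all genes were called, although the list median was −1.0 beside 0.12 for all genes. Without the library labelled Pu.1-KO a, 29 were called. Trim28, the corepressor that brings in Setdb1, had 2460 and 779 in KLS libraries labelled Pu.1-KO and 6450 and 4580 in WT. In GMPs 1 of 41 was higher and 9 were lower, where 17.6% of all genes were called, 9.15% higher and 8.49% lower. The 10 became 0 without WT b, 1 without WT a and 29 without the library labelled Pu.1-KO b. Dnmt3b had 226 and 341 in GMP libraries labelled Pu.1-KO and 522 and 706 in WT (−1.12, adjusted p 0.000893). Trim28 had 2570 and 3840 against 5140 and 5900 (−0.81, adjusted p 0.0118) and Setdb1, an H3 lysine 9 methyltransferase, 524 and 629 against 892 and 1020 (−0.73, adjusted p 0.0252). Cbx5, Rnaseh2a, Runx3, Apobec3 and the HUSH-linked genes Morc2a and Pphln1 were lower as well, by −0.81 to −0.66. Piwil2, a piRNA-binding protein, was higher, with 122 and 81.3 against 72.0 and 9.14 (1.89, adjusted p 0.00452).

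The untimed gene tables, whose headers follow the Daxx level, had 8 listed genes higher and 3 lower of 39 tested in KLS cells (23.1% of all genes called) and 5 higher and 11 lower of 39 in GMPs (33.0%). Without either library labelled Daxx-KO the 11 in KLS cells became 0, and without WT 2 the 16 in GMPs became 9. Only some of these called genes are named here, and none of the 3 lower in KLS cells. In KLS cells Atf7ip, a Setdb1 partner, had 6010 and 5680 in libraries labelled Daxx-KO and 3420 and 3680 in those labelled WT (0.72, adjusted p 0.00104). The cytidine deaminase gene Apobec3, which restricts retroelements, had 3350 and 2970 against 1850 and 1890 (0.76, adjusted p 0.00105). In GMPs Uhrf1 and Hells, both needed to maintain DNA methylation, fell in libraries labelled Daxx-KO. Uhrf1 had 620 and 487 against 1490 and 1590 (−1.49, adjusted p 5.39e-05) and Hells 910 and 768 against 2310 and 2160 (−1.42, adjusted p 3.08e-05). Atf7ip was higher in GMPs too, at 3710 and 4180 against 2470 and 2270 (0.73, adjusted p 0.00045).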

How the data were processed

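RNA-seq of sorted cells was read from the tables the authors deposited. Per the labels, RNA was isolated with Trizol and libraries made with the NuGEN Ovation SoLo kit, while the study's methods give a different kit for part of the experiments. Which kit made a given library is not settled. The submitters' processing notes name CASAVA 1.8.4, cutadapt 1.13, STAR 2.5.3, DESeq2 1.16.1 and mm10. The study's methods give CASAVA for demultiplexing of part of the libraries. The roles of the other tools and the strand setting of the counting are not given in the sources used here. Neither is the treatment of reads with several matches. The untimed repeat tables are named for TEtranscripts, which shares reads among repeat copies. The names of the other repeat tables give no counting tool.

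The authors deposited raw counts per repeat subfamily for the Daxx lines at 3 and 24 w.p.i. and the Pu.1 line, and normalized signal (counts divided by 1 size factor per library) for untimed repeats and for all genes. Whole reads were recovered from 100.0% of values above 0 in the normalized columns used (tolerance 0.01). The design allowed for either unit and the test followed it.

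Raw counts were tested with edgeR 4.0.16 (filterByExpr, TMM, library size from the repeat table, quasi-likelihood), with an SE of the log2 difference divided by the square root of F. Signal values were tested with limma 3.58.1 with a trend on log2(value + 1) over rows with a mean of 10 or more, a scale that understates changes of low rows. R was 4.3.3. Alternatives were DESeq2 1.42.0, other scalings, no filter, a pseudocount of 0.5, a block and leaving out each library. Fits were tested on simulated data. P values were adjusted by Benjamini-Hochberg over all features of a comparison, called under 0.05, and measure the spread between libraries. Each table was tested on its own, except that DKO and Daxx-KO KLS columns were joined over 887 shared rows. Levels of different subfamilies are not per length.

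The members, lists and named features were chosen with earlier results of these data known. The plan named each L1Md subfamily and the called control genes. Per comparison it also named up to 2 called older L1 with the largest rise and up to 2 with the largest fall, without overlap. Values are not printed for each L1Md subfamily in every comparison. Of the control genes called in untimed cells only some are named. Of 111 columns per sample, 38 were not used, 8 of them at 24 w.p.i. with no genotype in their names. Letters a to c name libraries whose columns give no replicate number. For GMPs of the table with libraries labelled DKO, genotype came from the label of the KLS library with the same animal number. For 1 WT animal of that set, no label gives its number, and a column ending for control was used. In the Pu.1 line and for WT at 24 w.p.i. genotype was read only from the column ending, treatment or control. The L1 sequences are not shown here, and 2 marker genes are not reported here. KLS and GMP libraries of the Pu.1 line and of WT at 24 w.p.i. come in pairs from 1 animal, as the animal number in the column names shows. The animal was a block there in an added alternative. GMPs of the table with libraries labelled DKO also come from animals that gave a KLS library. KLS WT 2 and GMP WT b of that set are 1 animal. The KLS and GMP results of these genotypes are therefore not from separate mice, and the cell types were not compared there.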

Additional observations from a re-analysis of the deposited data

Results flagged for a closer look

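The 3 L1 subfamilies given here are among those named above. In each, both untimed libraries labelled Daxx-KO lay above both labelled WT in KLS cells and below both in GMPs. Opposite signs were common among L1 and not particular to these 3. Of the 124 older L1 tested, 112 lay above 0 in KLS cells and 118 of 124 lay below 0 in GMPs. L1Md_A had a log2 difference of 0.39 in KLS cells and −0.41 in GMPs, L1Md_Gf of 0.36 and −1.43, and L1M4a1 of 0.37 and −0.59. The difference between cell types was not tested, because the 2 cell types were normalized in separate tables. The medians of all subfamilies were 0.27 and −0.28 in these tables, so the opposite signs stand beside a shift of the same kind over all repeats. The genotype names of these repeat columns are in doubt, as given above.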

How the results depend on the processing

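Among single subfamilies 554 values stayed on the same side of the threshold or within the spread under an alternative. Of the others 100 moved, 40 lost and 19 gained the call, and 1 was counted as reversed. That was L1Md_T in untimed GMPs, at 0.59 without the library labelled WT 2 (range over the libraries left out −0.80 to 0.59). This count does not hold every change of sign, since other differences that were not called also crossed 0. L1Md_F2 in untimed GMPs ran from −0.98 to 1.18 with a library left out. L1Md_T in GMPs labelled DKO against WT ran from −1.31 to 0.78. Counts and ratios stayed close to the reported value in 188 alternatives and moved in 64. In untimed KLS cells the 17 L1 calls became 2 after TMM rescaling, 2 with edgeR on recovered reads, 7 with a replicate block and 1 to 56 with a library left out (56 without WT 1). In untimed GMPs the 15 calls became 1, 1, 8 and 3 to 71 (71 without WT 2), and 33 with crossed pairs, an alternative that, like the recovered reads and the animal block, was chosen after seeing the data. The replicate numbers did not pair these libraries (correlation of deviations 0.03 in untimed KLS cells, −0.21 in untimed GMPs, 0.16 and 0.04 for Daxx-KO and −0.01 and 0.05 for DKO KLS cells). In KLS cells at 3 w.p.i. the block gave 2 L1 calls for Daxx-KO against WT, 2 for DKO against WT and 0 for DKO against Daxx-KO, DESeq2 gave 2 for DKO against WT and 6 for DKO against Daxx-KO, and leaving out a library gave 0 to 1 in each. No replicate block was run between genotypes in the GMP table at 3 w.p.i. or the Pu.1 line, whose columns name animals that differ between genotypes and carry no replicate number.

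In the Pu.1 line DESeq2 gave 16 L1 calls in KLS cells, 1 in GMPs and 2 between WT GMPs and KLS cells, where the animal block gave 1. Leaving out a library gave 0 to 41 in KLS cells (41 without Pu.1-KO a, 0 without WT a) and 0 to 3 for the interaction. At 24 w.p.i. DESeq2 gave 4 calls, scaling to the total 3, no filter 3, the animal block 3 and a library left out 0 to 12 (12 without GMP a). Without the most abundant young and older subfamily the log2 ratio was −0.12 in untimed KLS cells, −0.29 and −0.30 in KLS cells and GMPs of the Pu.1 line, 0.49 between its WT cell types and 0.10 at 24 w.p.i. The ratio of DKO to Daxx-KO KLS cells ran from −0.39 to 0.32 with a library left out. Of the control genes, untimed KLS cells had 4 calls without a filter and 0 to 8 with a library left out, untimed GMPs 9 to 21, DKO KLS cells 3 to 7 against WT and 2 to 6 against Daxx-KO, and the Pu.1 line 0 to 29 in each cell type, with 1 in KLS cells without a filter and 2 with edgeR. Alternatives planned for Daxx-KO and DKO cells at 24 w.p.i. and for long-term stem cells were not run, since their columns could not be matched.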
